A study of Homo sapiens with 12 samples.

Results

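The genes described here build, load and drive the DNA replication machinery. They are 49 genes given as a list of symbols, with no measured value in the rule, out of 63677 genes in the count table and 16287 genes with enough counts to be tested. The list was, however, chosen with earlier results of these data known. All 49 had enough counts, with 170 to 25317 counts per gene and library. RNA was sequenced from HPB-ALL, an established human line of T-cell acute lymphoblastic leukaemia cells (T-ALL). Every library came from cells that had been infected with lentivirus, selected with a drug and grown in tetracycline-free serum. Line T5 carried inducible TAL1, line L4 inducible LMO1 and line C25 both, and each was given DMSO, the vehicle, or doxycycline, the inducer. The 6 groups held 2 libraries each. The sources used here give neither a dose nor a length of exposure for doxycycline, do not name the promoter of the construct, and do not say whether a line was 1 clone. A line without a transgene was not analysed here, so doxycycline itself and the induced gene cannot be told apart within a line.

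A cell copies its DNA once per division by licensing origins first and firing them later. The origin recognition complex (ORC) with CDC6 and CDT1 loads rings of the MCM2-7 helicase onto DNA in G1, and geminin blocks CDT1 once S phase has begun. The kinase CDC7 with DBF4, together with cyclin-dependent kinases, then lets CDC45 and the GINS complex join MCM2-7 to form the active helicase. At the fork, replication protein A coats single strands, polymerase alpha and primase lay primers, the clamp PCNA is loaded by replication factor C, and polymerases epsilon and delta extend the leading and lagging strands. Many of these genes are transcribed in late G1 by E2F factors once the retinoblastoma (RB) family is inactivated. TAL1, a helix-loop-helix factor that binds E-box DNA, and LMO1, a LIM-only protein found in complexes with it, are T-ALL oncogenes.

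Library totals lay between 14865073 and 15917713 counts. Levels are given as CPM (counts scaled to a common library size), with sizes set by TMM, a method that assumes most genes do not change. TAL1 was at 4.06 and 3.88 CPM with DMSO and at 35.5 and 42.9 CPM with doxycycline in the TAL1 line. LMO1 was at 3.93 and 1.76 CPM with DMSO and at 239 and 212 CPM with doxycycline in the LMO1 line. In the line with both, TAL1 went from 3.08 and 7.34 to 932 and 868 CPM, and LMO1 from 0.449 and 6.89 to 1501 and 1576 CPM. The labels therefore matched the induced genes, but each transgene was far higher in the TAL1/LMO1 line than in its single line, so having both genes and having more of each cannot be told apart. The 12 T-lineage markers summed to between 2210 and 4558 CPM per library, and each list of B-lineage, myeloid, erythroid or fibroblast markers to at most 5.21 CPM, with MS4A1, HBA1 and HBB at 0 counts in every library. The T-lineage sum was 2210 and 2341 CPM with doxycycline in the TAL1/LMO1 line against 2734 to 2782 CPM with DMSO, and its part in the results was not tested. Within this sum the group means of CD5, CD7 and CD8A were higher with doxycycline in that line, and those of the other T-lineage markers lower. For example, CD8A went from 203 to 418 CPM and CD3E from 405 to 94.2 CPM. Replicate libraries differed beyond counting noise, with a chi-square per degree of freedom of 1.73 to 2.79, so all were counted separately. Nothing says that replicates were separate cultures, so the p-values cover the spread between libraries, which may be technical.

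The promoters of 5 members are shown because they hold the features that the responses below are set against: an E2F match in genes that fell, an E2F match in the gene that was not called, and none in the genes with the largest fall and the rise. Each is a RefSeq promoter window of 300 bases (GRCh38.p14), from upstream of an annotated transcription start to shortly past it, on the gene's strand. The RNA counts were made on build hg19, so these windows are used for sequence and not joined to the counts by position. Capitals mark a match on either strand to 1 of 4 motifs: E2F (TTTCCCGC, TTTCGCGC, TTTGCCGC or TTTGGCGC), the E-box of MYC (CACGTG), an E-box letter string for TAL1 (CAGATG) and the cell cycle homology region, CHR (TTTGAA). The windows are MCM2 at chr3:127598161-127598460, plus strand; GMNN at chr6:24775163-24775462, plus strand; E2F1 at chr20:33686336-33686635, minus strand; USP1 at chr1:62436799-62437098, plus strand; and RPA1 at chr17:1829755-1830054, plus strand.
MCM2: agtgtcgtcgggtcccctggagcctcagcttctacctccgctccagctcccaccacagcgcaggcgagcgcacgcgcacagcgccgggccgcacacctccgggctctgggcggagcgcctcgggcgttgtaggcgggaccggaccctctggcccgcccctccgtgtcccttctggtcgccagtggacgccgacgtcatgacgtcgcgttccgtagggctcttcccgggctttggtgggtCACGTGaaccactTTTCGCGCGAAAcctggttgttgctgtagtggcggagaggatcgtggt
GMNN: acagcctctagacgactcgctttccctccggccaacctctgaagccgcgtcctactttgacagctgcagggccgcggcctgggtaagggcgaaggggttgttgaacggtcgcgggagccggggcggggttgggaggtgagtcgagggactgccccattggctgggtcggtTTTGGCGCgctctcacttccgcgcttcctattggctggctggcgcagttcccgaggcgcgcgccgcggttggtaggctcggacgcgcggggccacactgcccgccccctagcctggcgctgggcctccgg
E2F1: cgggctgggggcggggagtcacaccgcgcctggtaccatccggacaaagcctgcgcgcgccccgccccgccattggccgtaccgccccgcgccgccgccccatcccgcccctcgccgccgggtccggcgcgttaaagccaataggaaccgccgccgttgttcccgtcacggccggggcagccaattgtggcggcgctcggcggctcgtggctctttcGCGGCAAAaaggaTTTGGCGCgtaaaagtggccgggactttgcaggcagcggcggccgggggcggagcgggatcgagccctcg
USP1: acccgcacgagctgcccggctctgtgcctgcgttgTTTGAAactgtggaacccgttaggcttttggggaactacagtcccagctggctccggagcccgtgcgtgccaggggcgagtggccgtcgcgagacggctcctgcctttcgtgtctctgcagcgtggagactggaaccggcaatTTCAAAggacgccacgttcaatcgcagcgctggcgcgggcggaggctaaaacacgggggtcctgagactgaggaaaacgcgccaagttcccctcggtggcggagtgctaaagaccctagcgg
RPA1: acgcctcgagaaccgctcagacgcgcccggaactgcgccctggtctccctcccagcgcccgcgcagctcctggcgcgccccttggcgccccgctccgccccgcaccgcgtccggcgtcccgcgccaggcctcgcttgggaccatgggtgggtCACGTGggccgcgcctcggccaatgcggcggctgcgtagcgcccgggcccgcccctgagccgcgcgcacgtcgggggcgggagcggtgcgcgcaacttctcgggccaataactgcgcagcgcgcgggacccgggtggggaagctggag

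MCM2, a subunit of the replicative helicase, has a MYC E-box 11 bases before the start and 2 E2F matches on opposite strands that overlap, from bases 2 and 6 after it. GMNN, which encodes geminin, has 1 E2F match 80 bases before this start, and a MYC E-box in a second RefSeq window. E2F1, itself an E2F factor, has E2F matches 33 and 20 bases before the start. USP1, whose product removes ubiquitin from PCNA, has 2 CHR matches and no E2F match in this window, and its other window holds none of the motifs. RPA1, the large subunit of replication protein A, has a MYC E-box 98 bases before the start. Of the 49 members, 43 had at least 1 window, 54 windows in all. Those without one were GINS4, MCM4, MCM5, POLD3, RPA2 and RPA3.

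An E2F match was held by 22 of the 43 members, or 51.2%, against 3.99% of the 27305 genes with a window. The members with one were CDC6, CDC7, CDT1, CLSPN, E2F1, E2F2, GINS1, GINS2, GINS3, GMNN, LIG1, MCM2, MCM3, MCM6, MCM7, PCNA, POLA1, POLA2, POLE, POLE2, RFC3 and TIPIN. The MYC E-box was in 7 members (16.3% against 8.77% of all genes), the TAL1 string in 6 (14% against 17.5%) and CHR in 2 (4.65% against 18.2%). By windows of this same length, 3.32% of all 35093 held an E2F match. The members' windows were also richer in G and C, with a median of 64.3% against 58.7%, and the E2F letters are themselves mostly G and C. These are letter matches and not measured binding.

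Nearly the whole set was lower with doxycycline in the TAL1/LMO1 line. At an adjusted p under 0.05 (edgeR's quasi-likelihood test, Benjamini-Hochberg over all tested genes), 47 of 49 members fell, RPA1 rose, and E2F1 was not called. Of all tested genes, 31.7% were called lower and 28.5% higher in that comparison, or 60.2% in either direction. By these calls the assumption of TMM, that most genes do not change, was not met. The members' median log2 change was -0.56 and their range -1.21 to 0.61, while the median over all tested genes was -0.01. With total counts in place of TMM these medians were -0.46 and 0.09. Both doxycycline libraries lay below both DMSO libraries for the same 47 members, against 40.1% of all tested genes, and above them for RPA1 and E2F1, against 38.1%. Summed over the 49 members, the level was 7346 and 7418 CPM with DMSO and 4897 and 4962 CPM with doxycycline, so the set's share of all counts went from 0.741% and 0.75% to 0.53% and 0.535%. In a bulk culture, fewer replicating cells and less of these RNAs per cell cannot be told apart.

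**Figure D1:**
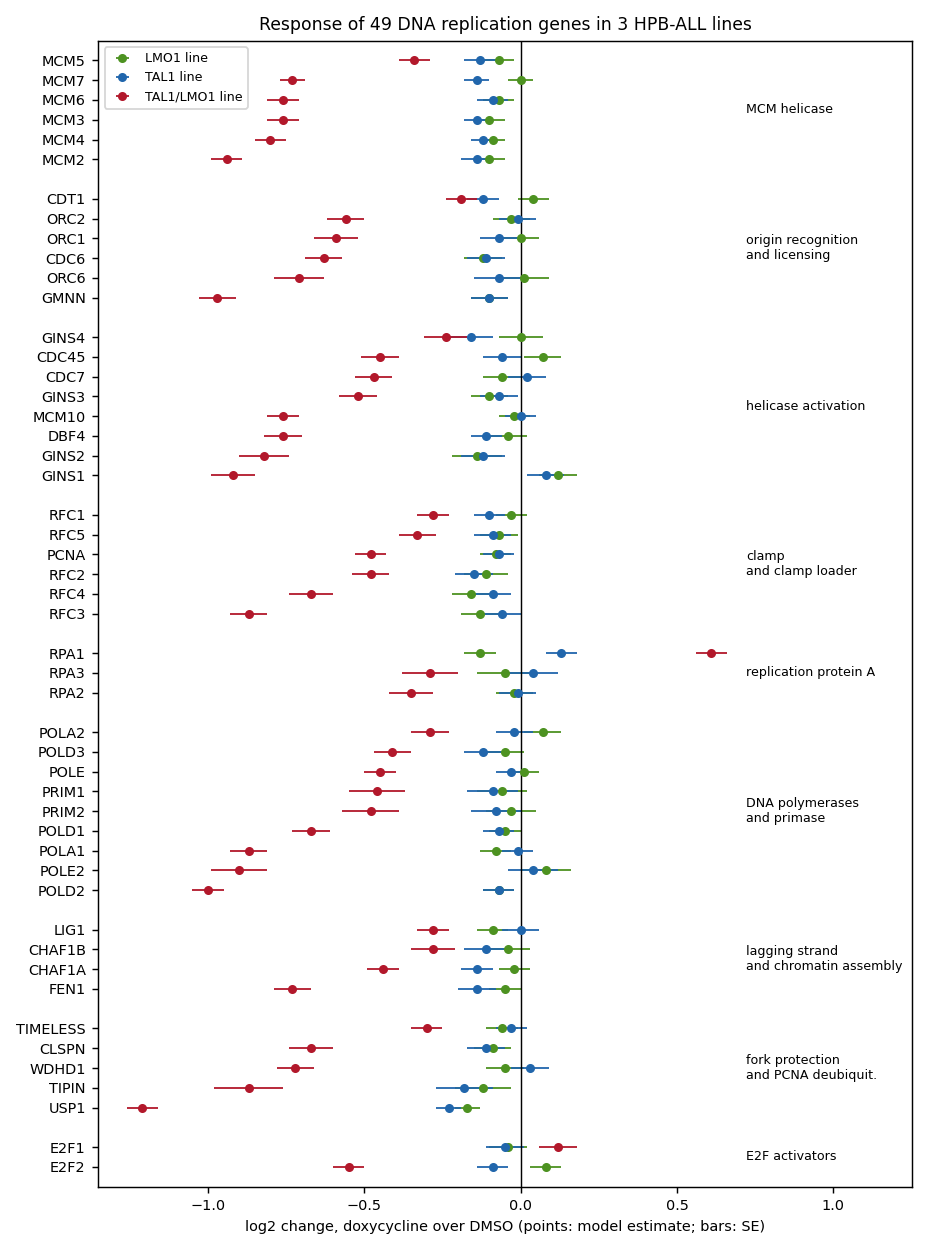
Log2 change with doxycycline (x axis) of each of the 49 genes (y axis, grouped by role) in the TAL1/LMO1 line (red), the TAL1 line (blue) and the LMO1 line (green); points are model estimates and bars their SE. The red points run from -1.21 for USP1 to 0.61 for RPA1, while the blue and green points lie between -0.23 and 0.13.

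The 6 subunits of the MCM2-7 helicase all fell, with a median log2 change of -0.76. MCM2 (ENSG00000073111) was at 388 and 399 CPM with DMSO and at 203 and 209 CPM with doxycycline, a fall of 47.7% (log2 -0.94, SE 0.05, edgeR adjusted p = 9e-30). Genes on the other strand share 23.6% of its annotated exon bases. MCM4 (-0.80), MCM3 and MCM6 (-0.76 each) and MCM7 (-0.73) changed by similar amounts. MCM5 moved least, from 324 and 347 to 254 and 278 CPM (log2 -0.34, SE 0.05, edgeR adjusted p = 4e-09). The subunits enter the ring in equal number, but the estimates for their RNAs ranged from a doxycycline to DMSO ratio of 0.523 for MCM2 to 0.791 for MCM5.

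Origin recognition and licensing genes fell in 6 of 6 cases, with a median of -0.61. Geminin, the inhibitor of licensing, had the largest estimate and CDT1, the loader it inhibits, the smallest. GMNN was at 89.3 and 93.2 CPM with DMSO and at 46.5 CPM in both doxycycline libraries (log2 -0.97, SE 0.06, edgeR adjusted p = 8.3e-24). CDT1 was at 184 and 188 CPM with DMSO and at 164 and 162 CPM with doxycycline, a fall of 12.3% (log2 -0.19, SE 0.05, edgeR adjusted p = 0.0008). With total counts in place of TMM the change of CDT1 was -0.09 (edgeR adjusted p = 0.11), so its call depends on the scaling. Between these were ORC6 (-0.71), the loading factor CDC6 (-0.63), ORC1 (-0.59) and ORC2 (-0.56).

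All 8 genes of helicase activation fell, with a median of -0.64. GINS1 was at 73.7 CPM in both DMSO libraries and at 36.5 and 41.3 CPM with doxycycline (log2 -0.92, SE 0.07, edgeR adjusted p = 1.7e-20). GINS2 (-0.82) and GINS3 (-0.52), which share a 4-subunit complex with it, also fell. GINS4, the remaining subunit, was at 41.0 and 43.8 CPM with DMSO and at 37.0 and 34.5 CPM with doxycycline (log2 -0.24, SE 0.07, edgeR adjusted p = 0.003). Its call was lost with total counts (-0.15, edgeR adjusted p = 0.077), and 23.6% of its annotated exon bases overlap genes on the other strand. MCM10 (-0.76) and DBF4 (-0.76), the regulatory subunit of the kinase CDC7, had larger estimates than CDC7 itself (-0.47) and CDC45 (-0.45).

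The clamp and its loader fell in 6 of 6 cases, with a median of -0.48. RFC3 was at 80.6 and 86.1 CPM with DMSO and at 47.6 and 43.7 CPM with doxycycline (log2 -0.87, SE 0.06, edgeR adjusted p = 4.6e-20). RFC1, the large subunit of the same loader, moved least, from 159 and 167 to 140 and 128 CPM (log2 -0.28, SE 0.05, edgeR adjusted p = 2.5e-06). RFC4 (-0.67), PCNA (-0.48), RFC2 (-0.48) and RFC5 (-0.33) lay between them.

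Among the 49 members, those of replication protein A went in opposite directions. RPA1 (ENSG00000132383) was at 149 and 152 CPM with DMSO and at 231 and 230 CPM with doxycycline, a rise of 52.7% (log2 0.61, SE 0.05, edgeR adjusted p = 2.7e-18). RPA2 fell from 60.6 CPM in both DMSO libraries to 48.6 and 46.3 CPM (log2 -0.35, SE 0.07). RPA3 went from 25.1 and 27.4 to 21.9 and 21.1 CPM (log2 -0.29, SE 0.09, edgeR adjusted p = 0.0051). The call for RPA3 was lost with total counts (-0.19, edgeR adjusted p = 0.067) and without DMSO replicate 2 (-0.24, edgeR adjusted p = 0.074). An antisense gene, RPA3-AS1, had 315 to 572 counts per library. Genes on opposite strands can be told apart only by counting with strand, and the sources used here do not state that setting.

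Every polymerase and primase gene fell, 9 of 9, with a median of -0.48. POLD2, a subunit of polymerase delta, was at 263 and 254 CPM with DMSO and at 127 and 132 CPM with doxycycline, a fall of 50.0% (log2 -1.0, SE 0.05, edgeR adjusted p = 5.7e-29). POLE2, a subunit of polymerase epsilon, went from 34.1 and 33.7 to 19.0 and 17.4 CPM (log2 -0.90, SE 0.09, edgeR adjusted p = 7.6e-15). POLA1, the catalytic subunit of polymerase alpha, went from 116 and 109 to 59.1 and 63.8 CPM (log2 -0.87, SE 0.06, edgeR adjusted p = 1.6e-22). Its partner POLA2 changed least of the 9, from 125 and 116 to 92.8 and 103 CPM (log2 -0.29, SE 0.06), and 35.1% of its exon bases are shared with another gene on the same strand. POLD1 (-0.67), PRIM2 (-0.48), PRIM1 (-0.46), POLE (-0.45) and POLD3 (-0.41) filled the range between. POLD2 and POLA2, at the ends, are both accessory subunits, and the catalytic subunits POLA1, POLD1, PRIM1 and POLE lay between them.

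Genes that finish the lagging strand and repackage it fell in 4 of 4 cases, with a median of -0.36. FEN1, the flap nuclease, was at 132 and 127 CPM with DMSO and at 74.7 and 81.2 CPM with doxycycline (log2 -0.73, SE 0.06, edgeR adjusted p = 1.9e-19). LIG1, the ligase that seals the fragments, was at 125 and 136 CPM and then 107 and 109 CPM (log2 -0.28, SE 0.05, edgeR adjusted p = 9.8e-06). The chromatin assembly subunits CHAF1A and CHAF1B changed by -0.44 and -0.28.

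The fork protection genes and USP1 had a median of -0.72, and all 5 fell. USP1 (ENSG00000162607) showed the largest fall of the 49 members, from 503 and 488 CPM with DMSO to 226 and 202 CPM with doxycycline, or 56.8% (log2 -1.21, SE 0.05, edgeR adjusted p = 7.8e-36). TIPIN and TIMELESS form 1 complex that travels with the fork, yet TIPIN changed by -0.87 (SE 0.11) and TIMELESS by -0.30 (SE 0.05), from 174 CPM in both DMSO libraries to 134 and 150 CPM. For TIPIN, 21% of exon bases are shared with a gene on the same strand. WDHD1, which links the helicase to polymerase alpha, changed by -0.72, and CLSPN, an adaptor that activates the checkpoint kinase CHK1, by -0.67.

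The pair of activating E2F factors did not move together. E2F2 was at 194 and 197 CPM with DMSO and at 131 and 135 CPM with doxycycline (log2 -0.55, SE 0.05, edgeR adjusted p = 6.2e-16). E2F1 (ENSG00000101412) was at 104 and 111 CPM with DMSO and at 115 and 118 CPM with doxycycline (log2 0.12, SE 0.06, edgeR adjusted p = 0.057). The E2F1 libraries did not overlap, but the change missed the threshold under TMM. It passed in 4 of 10 alternatives. These were total counts (edgeR adjusted p = 0.00066), DESeq2 size factors (0.034), a replicate term (0.045) and the compared libraries alone (0.045). In the other 6 alternatives E2F1 was not called, and over all 10 its log2 change ran from 0.07 to 0.22.

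**Figure D2:**
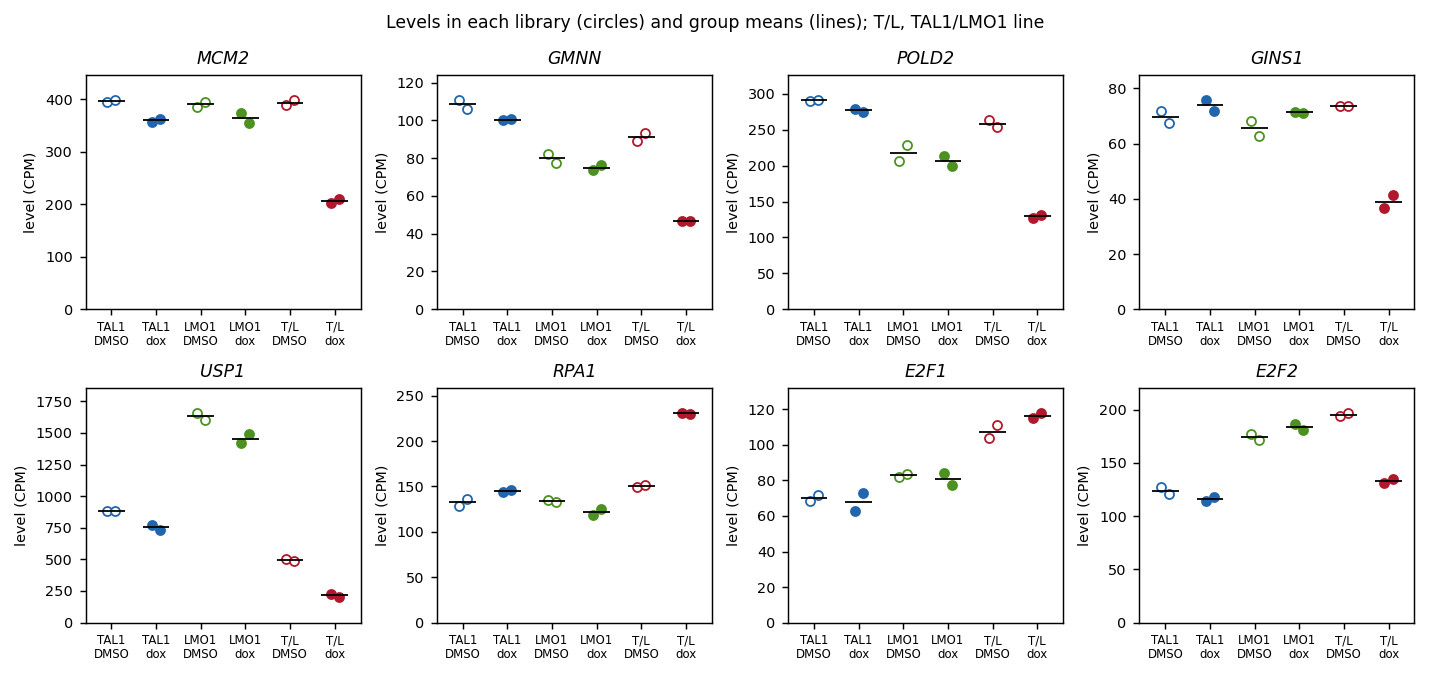
Level in CPM (y axis, from 0, a separate scale for each gene) of 8 of the genes in every library (circles, open for DMSO and filled for doxycycline) with group means (lines), by line and treatment (x axis). USP1 stands at 1658 and 1604 CPM in the LMO1 line with DMSO and at 226 and 202 CPM in the TAL1/LMO1 line with doxycycline, and RPA1 is highest in the TAL1/LMO1 line with doxycycline, at 231 and 230 CPM.

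Set against the promoter letters shown above, members with and without an E2F match both fell. Of the 22 with a match, 21 fell and E2F1 was not called, with a median of -0.70 and a range of -0.97 to 0.12. Of the 21 with a window but no match, 20 fell and RPA1 rose, with a median of -0.56 and a range of -1.21 to 0.61. The 6 members without a window all fell, with a median of -0.34. The ranges overlap widely, and USP1 and POLD2, with the largest falls, are in the group without a match.

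Changes in the single lines were small. In the TAL1 line 1 member, USP1, was called lower and none higher, while 0.853% of all tested genes were called lower and 0.982% higher, or 1.84% in either direction. With total counts the split over all genes was 57 lower and 216 higher in place of 139 and 160. USP1 was at 880 and 883 CPM with DMSO and at 774 and 734 CPM with doxycycline, a fall of 14.5% (log2 -0.23, SE 0.04, edgeR adjusted p = 0.00087). Without doxycycline replicate 2 its change was -0.19 (edgeR adjusted p = 0.077). At an unadjusted p under 0.05, 13 members were lower and 1 higher, or 26.5% and 2.04%, against 6.5% and 5.66% of all tested genes. The DESeq2 alternative called 4 members lower and none higher. The share of all tested genes that it called is not given here, so this count has no background beside it.

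Although few passed the test, the estimates in the TAL1 line leaned one way. Of 49 members 42 had a negative log2 change, with a median of -0.09, against 50.1% of all tested genes and a median of -0.00. The members were measured in the same libraries, so their estimates are not independent of each other. The lean was not particular to them: 61 of the 79 related genes described below were negative too, among them all 16 mitosis genes. Both doxycycline libraries were below both DMSO libraries for 30 members, against 21.8% of all genes, and above them for 1, RPA1, against 20.1%. All 6 MCM genes had estimates between -0.14 and -0.09, and MCM7 came nearest to the threshold of those not called, with 600 and 591 CPM against 538 and 540 CPM (log2 -0.14, edgeR adjusted p = 0.073). It passed by DESeq2 (0.026) and with the compared libraries alone (0.02). RPA1 was at 129 and 136 CPM with DMSO and at 144 and 146 CPM with doxycycline (log2 0.13, SE 0.05, edgeR adjusted p = 0.22). The summed level of the members was 7916 and 7915 CPM with DMSO and 7381 and 7398 CPM with doxycycline. With total counts 36 of 49 members were negative, with a median of -0.06 against 0.03 over all tested genes. With DESeq2 size factors 43 were negative, with a median of -0.09 against -0.01. The number of negative members thus depends on the scaling, while their median lay below that of all genes under each.

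USP1 was also the 1 member called in the LMO1 line, where 0.964% of all tested genes were called lower and 1.18% higher, or 2.14% in either direction. It was at 1658 and 1604 CPM with DMSO and at 1419 and 1490 CPM with doxycycline, a fall of 10.8% (log2 -0.17, SE 0.04, edgeR adjusted p = 0.022). Leaving out DMSO replicate 1 (-0.14, edgeR adjusted p = 0.19) or doxycycline replicate 1 (-0.13, edgeR adjusted p = 0.37) ended this call. No member was called higher by edgeR or by DESeq2. At an unadjusted p under 0.05, 8 were lower (16.3%) and 0 higher, against 5.83% and 6.24% of all tested genes. Of 49 estimates 39 were negative, with a median of -0.05, and 47.9% of all tested genes were negative. So were 54 of the 79 related genes, and here too estimates from the same libraries are not independent. The libraries did not overlap for 17 members that were lower, against 20.3% of all genes, and for 5 that were higher, against 20.8%. RPA1 was at 135 and 133 CPM with DMSO and at 119 and 125 CPM with doxycycline (log2 -0.13, SE 0.05, edgeR adjusted p = 0.25).

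**Figure D3:**
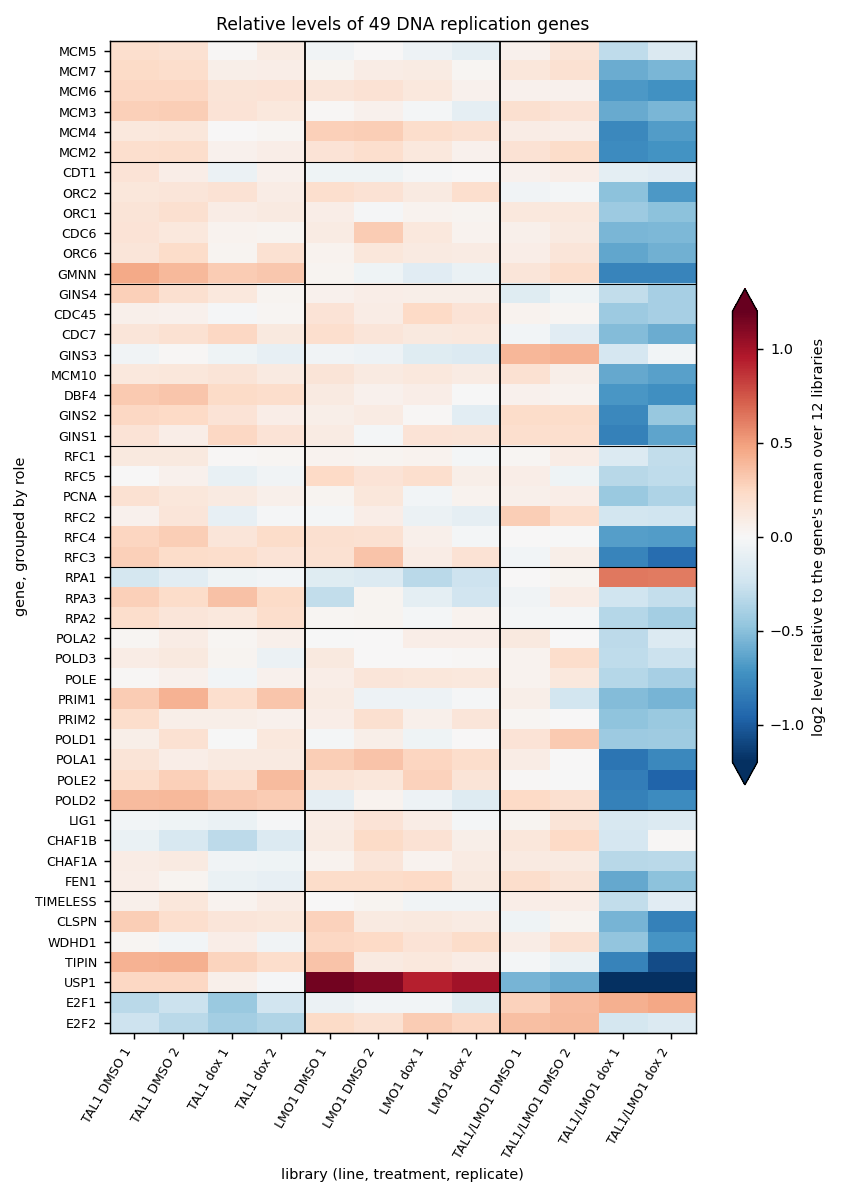
Relative level of each gene (y axis, grouped by role) in each of the 12 libraries (x axis), as the log2 level minus the gene's mean over the libraries; red is above and blue below the mean. The last 2 columns, the TAL1/LMO1 line with doxycycline, are blue for the members that fell and red for RPA1, and the USP1 row also separates the lines in their DMSO columns.

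The response of the TAL1/LMO1 line differed from that of each single line for most members. These contrasts within the edgeR model share the TAL1/LMO1 libraries, so they are not independent of each other. Against the TAL1 line, 44 members responded more negatively and RPA1 more positively, where 25.4% and 18.4% of all tested genes did, or 43.8% in either direction. Against the LMO1 line the counts were 46 and 1, where the shares of all genes were 26.4% and 19.1%, or 45.4%. Against both single responses added up as log2 changes, 35 responded more negatively and RPA1 more positively, where 21.4% and 13.3% of all genes did, or 34.7%. The 2 single lines' responses were measured at lower transgene levels, as given above.

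GINS1 and POLE2 had the largest departures from the sum, since their estimates in the single lines were above 0. GINS1 was at 71.8 and 67.4 CPM with DMSO and at 75.9 and 71.7 CPM with doxycycline in the TAL1 line, and at 68.3 and 62.8 and then 71.6 and 71.1 CPM in the LMO1 line. These changes of 0.08 and 0.12 were not called (edgeR adjusted p = 0.66 and 0.44), and the departure from their sum was -1.13 (SE 0.11, edgeR adjusted p = 9.7e-14). For POLE2 the departure was -1.02 (SE 0.14, edgeR adjusted p = 4.8e-09), with single-line changes of 0.04 and 0.08, the first of which was -0.05 without doxycycline replicate 2 of the TAL1 line. POLD2 departed by -0.86, USP1 by -0.82, POLA1 by -0.79 and GMNN by -0.78. RPA1 responded more positively by 0.48 than in the TAL1 line and by 0.74 than in the LMO1 line, and exceeded the sum by 0.61 (SE 0.09, edgeR adjusted p = 2.9e-08).

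The departure from the sum was not called for 13 members, namely MCM5, CDT1, GINS4, RFC1, RFC2, RFC5, RPA3, PRIM1, POLD3, LIG1, CHAF1B, TIMELESS and E2F1. Their departures ran from -0.31 for PRIM1 to 0.21 for E2F1. For MCM5 it was -0.14 (SE 0.08, edgeR adjusted p = 0.21; -0.22 and 0.039 without doxycycline replicate 2 of the TAL1/LMO1 line) and for CDT1 -0.11 (SE 0.09, edgeR adjusted p = 0.37). A difference of this size was not separated from the spread between libraries.

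The lines also differed before induction. Among DMSO libraries, the TAL1/LMO1 line had 7 members higher and 17 lower than the TAL1 line, against 22.4% and 23.0% of all tested genes. Against the LMO1 line 11 were higher and 10 lower, where 20.4% and 20.6% of all genes were. The TAL1 line had 10 higher and 10 lower than the LMO1 line, where 18.5% and 17.8% of all genes were. In either direction 24, 21 and 20 of the 49 members were called, against 45.4%, 41.0% and 36.4% of all genes, so these undirected shares lay near the background. By direction they were less even. The estimates of 69.4%, 51% and 34.7% of members were negative, against 48.8%, 49.3% and 50.1% of all tested genes. The 3 comparisons share libraries. Without DMSO replicate 2 of the TAL1/LMO1 line, 12 in place of 21 members were called against the LMO1 line.

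USP1 showed the largest baseline difference in each of the 3 comparisons. With DMSO it was at 1658 and 1604 CPM in the LMO1 line, 880 and 883 CPM in the TAL1 line and 503 and 488 CPM in the TAL1/LMO1 line, in that order and without overlap. The TAL1/LMO1 line was lower than the LMO1 line by a log2 difference of -1.72 (SE 0.05, edgeR adjusted p = 2.1e-46) and lower than the TAL1 line by -0.83 (SE 0.05, edgeR adjusted p = 5.2e-27). The TAL1 line was lower than the LMO1 line by -0.89 (SE 0.04). The order of the 6 group means therefore ran from the LMO1 line with DMSO (1631 CPM) and with doxycycline (1454 CPM), through the TAL1 line (881 and 754 CPM), to the TAL1/LMO1 line (495 and 214 CPM).

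E2F1 and E2F2 were higher in the TAL1/LMO1 line than in the TAL1 line with DMSO, by 0.61 (SE 0.06) and 0.65 (SE 0.05). E2F1 was at 104 and 111 CPM there, against 68.6 and 71.9 CPM in the TAL1 line and 81.9 and 83.7 CPM in the LMO1 line. E2F2 was at 194 and 197 CPM, against 127 and 121 CPM in the TAL1 line and 177 and 172 CPM in the LMO1 line. GINS3 was higher by 0.42 and 0.46 than in the TAL1 and LMO1 lines. TIPIN was lower, at 21.5 and 20.6 CPM against 29.1 and 29.3 CPM in the TAL1 line and 27.6 and 23.5 CPM in the LMO1 line. Its call against the LMO1 line (-0.28) was lost with total counts (-0.21), by DESeq2, without replicate 2 of the TAL1/LMO1 line (-0.25) and without replicate 1 of the LMO1 line (-0.16). PRIM1, at 37.1 and 30.3 CPM against 43.8 and 47.1 CPM in the TAL1 line, was lower by -0.43. Between the single lines, GMNN (0.43), POLD2 (0.42) and RPA3 (0.38) were higher in the TAL1 line, and E2F2 (-0.49) and CHAF1B (-0.29) lower. The RPA3 difference was 0.22 (edgeR adjusted p = 0.097) without replicate 1 of the LMO1 line.

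Genes of the same pathway outside the 49 were read from 7 further lists of 79 genes, all of which had enough counts to be tested. With doxycycline in the TAL1/LMO1 line, 63 of the 79 fell and 5 rose, with a median of -0.48. There, 31.7% of all tested genes were called lower and 28.5% higher, with a median of -0.01. These shares are the background for each list below. The list of other licensing and firing factors fell in 10 of 11 cases (median -0.45), among them MCM8 (-0.65), ORC5 (-0.64) and ORC3 (-0.48). MCM8 is a relative of the MCM2-7 subunits and not part of their ring. Of the 10 genes that control CDT1 and licensing, all fell (median -0.62). They include CDC25A, the phosphatase that activates CDK2, at 58.8 and 55.8 CPM with DMSO and 27.9 and 27.4 CPM with doxycycline (log2 -1.05, SE 0.07). FBXO5, an inhibitor of the anaphase-promoting complex (-0.84), and cyclin A2, CCNA2 (-0.81), belong to the same list.

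Among 14 further polymerase, clamp loader and strand-processing genes, 10 fell and 2 rose (median -0.57). POLD4, the smallest subunit of polymerase delta, rose from 4.87 and 4.18 to 12.4 and 12.5 CPM (log2 1.46, SE 0.15, edgeR adjusted p = 9.5e-14), while POLD1, POLD2 and POLD3 fell. TOP2B, a type II topoisomerase, changed by 0.13 (SE 0.05, edgeR adjusted p = 0.021), and POLE3 (-0.99) and the topoisomerase TOP1 (-0.72) fell. The call for TOP2B was lost in 3 of 10 alternatives: no filter on low counts and leaving out doxycycline replicate 1 each gave a log2 change of 0.09 (edgeR adjusted p = 0.18), and leaving out DMSO replicate 2 gave 0.05 (edgeR adjusted p = 0.56). Of 9 replication checkpoint genes 5 fell and 1 rose (median -0.20). CHEK1, the kinase CHK1, was at 100 and 96.8 CPM with DMSO and at 59.3 and 57.7 CPM with doxycycline (log2 -0.75, SE 0.06). RAD1 changed by -0.74 and WEE1 by -0.57, while RAD9A, which is in the same checkpoint clamp as RAD1, changed by 0.18 (SE 0.08, edgeR adjusted p = 0.029). The call for RAD9A was lost in 4 of 10 alternatives, with a log2 change of 0.20 by DESeq2 (adjusted p = 0.094), 0.15 with no filter on low counts (edgeR adjusted p = 0.13), and 0.11 when either DMSO replicate 1 (edgeR adjusted p = 0.35) or doxycycline replicate 2 (edgeR adjusted p = 0.3) was left out.

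Deoxynucleotide supply genes fell in 6 of 8 cases (median -0.56). RRM2, the small subunit of ribonucleotide reductase, was at 281 and 258 CPM with DMSO and at 109 and 111 CPM with doxycycline (log2 -1.29, SE 0.05, edgeR adjusted p = 1e-35), a larger estimate than that of any of the 49 members. TYMS, thymidylate synthase, fell (-0.64). TK1, thymidine kinase, was at 57.1 and 57.6 CPM and then 59.2 and 60.4 CPM (log2 0.06, SE 0.07, edgeR adjusted p = 0.44), and its change was 0.16 (0.033) with total counts. All 16 mitosis genes fell (median -0.61), among them BUB1B (-1.22), PLK1 (-0.85) and KIF20A (-0.84). The proliferation marker MKI67 was at 2235 and 2295 CPM with DMSO and at 1644 and 1545 CPM with doxycycline (log2 -0.51, SE 0.04). The medians of the 49 replication genes and of the 16 mitosis genes were thus -0.56 and -0.61.

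The remaining E2F and RB family genes split. TFDP2, a dimerisation partner of E2F factors, fell from 797 and 775 to 266 and 267 CPM (log2 -1.56, SE 0.05, edgeR adjusted p = 4.8e-44). RB1, the repressor of E2F factors, rose from 254 and 246 to 580 and 545 CPM (log2 1.17, SE 0.05, edgeR adjusted p = 1.6e-35). RBL2, which encodes p130, the RB family member of resting cells, rose from 109 and 112 CPM to 195 CPM in both libraries (log2 0.82, SE 0.05). E2F5, a repressive E2F, fell from 38.5 and 34.7 to 18.1 and 18.5 CPM (log2 -1.0, SE 0.08). E2F3, an activating E2F like E2F1 and E2F2, was at 111 and 104 CPM with DMSO and at 114 and 106 CPM with doxycycline. Of the 11 genes in this list, 6 fell, 2 rose and 3 were not called (median -0.32).

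**Figure D4:**
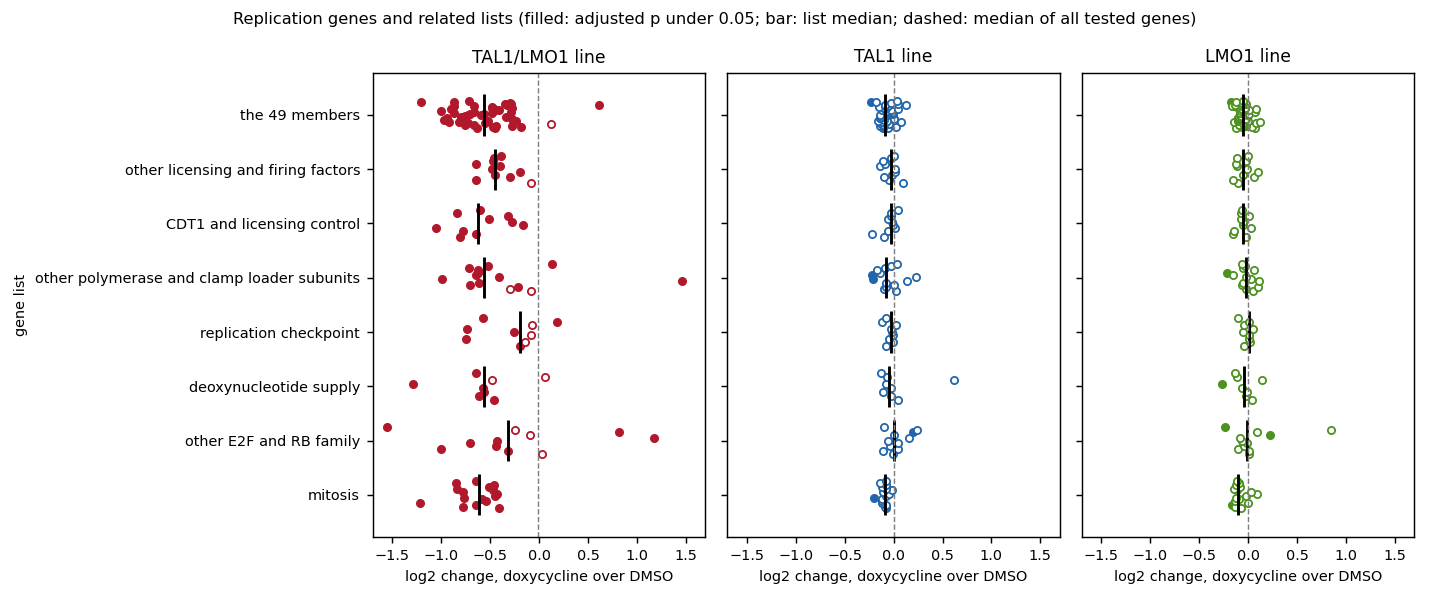
Log2 change with doxycycline (x axis) of every gene in the set of 49 and in 7 related lists (y axis), 1 panel for each line; filled circles passed an adjusted p under 0.05, bars are list medians and the dashed line is the median of all tested genes. In the TAL1/LMO1 line the list medians lie between -0.62 and -0.20, and RB1, RBL2 and POLD4 stand to the right.

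In the single lines few related genes were called. The TAL1 line had 3 of 79 lower and 1 higher, where 0.853% and 0.982% of all tested genes were. RNASEH2A (-0.22), POLE3 (-0.21) and the anaphase activator CDC20 (-0.20) fell, and RBL2 rose by 0.20 (SE 0.06, edgeR adjusted p = 0.034). The LMO1 line had 4 lower and 1 higher, where 0.964% and 1.18% of all tested genes were. There RRM2 was at 368 and 370 CPM with DMSO and at 308 and 305 CPM with doxycycline (log2 -0.27, SE 0.05, edgeR adjusted p = 5.1e-05). TFDP2 (-0.24), RNASEH2B (-0.22) and BUB1 (-0.16) also fell, and RBL1, which encodes p107, rose by 0.22 (SE 0.06, edgeR adjusted p = 0.044). RRM2 and TFDP2 kept their calls in the LMO1 line under all alternatives. Each of the others lost its call under some of the 10 alternatives, with its direction kept. The call for RBL1 held in only 2 of them and was lost with DESeq2 size factors, no filter, DESeq2, the compared libraries alone and any 1 of the 4 libraries left out (edgeR adjusted p up to 0.28). BUB1 lost its call in 6 (total counts, the compared libraries alone and each library left out) and RNASEH2A in 5 (total counts and each library left out). POLE3 lost it with each library left out, RBL2 by DESeq2 and with any library but doxycycline replicate 1 left out, CDC20 with any library but DMSO replicate 2 left out, and RNASEH2B with doxycycline replicate 1 left out (-0.16). The medians over the 79 genes were -0.06 and -0.05.

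In the authors' deposited table for the TAL1/LMO1 line, 45 members were lower and 1 higher at an adjusted p under 0.05, and GINS4, RPA3 and E2F1 were not called. In the authors' deposited tables for the TAL1 and LMO1 lines, USP1 was the 1 member called, lower in both, with a log2 change of -0.22 and -0.17. The authors' deposited table gives no adjusted p for 16 members in the LMO1 line. The share of all genes called in the deposited tables is not given here, so these member counts have no background beside them.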

How the data were processed

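Raw counts per gene for the 12 libraries were deposited by the authors, made with STAR 2.5.2a and featureCounts on build hg19, per the submitters' processing notes. Libraries were strand-specific and paired-end, with reads of 100 bases, per the labels' protocols. Whether the counting used strand is not given in the sources used. The authors' tables of DESeq2 1.12.4 results, 1 for each line, were deposited too. Per the file headers, the authors' columns are a mean normalised count (a signal), a log2 change and its standard error, a Wald score, and a p-value before and after adjustment. The signal and score were not used.

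Genes were kept by filterByExpr and sizes scaled by TMM. In edgeR 4.0.16 (R 4.3.3, robust), 1 mean per group was fitted over all 12 libraries, with 6 residual degrees of freedom and a median of 66 prior ones that pool the spread over genes. Quasi-likelihood F tests (two-sided) were adjusted by Benjamini and Hochberg's method over 16287 genes, with calls at an adjusted p under 0.05. Log2 changes have a prior count of 0.125. As SE, the size of the change over the root of F is given, or the counting error if that was larger. Contrasts in this model compared lines. RFC2 had 2 identifiers, and the one with the higher total was used. Exon overlaps came from GENCODE 29, on another build.

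A count of 0 allows up to 3 counts at 95% confidence, at most 0.198 CPM here, for counting error alone. Simulated data, with few genes changed and the same spread for all genes, were used to test the procedure. They do not test the scaling where most genes were called, as in the TAL1/LMO1 line.

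The members, related lists, comparisons and alternatives were chosen with earlier results of these data known. Values in every library are given for the members with the largest and smallest change in each role, for those not called, called higher or called in a single line, and for the largest differences between lines. From each related list, up to 3 called genes with the largest change are named, and any called in the opposite direction. A gene that this rule names in the deoxynucleotide list is not reported here. E2F3, MCM7, RPA2, TK1, MKI67, RBL1, CDC20, BUB1, RNASEH2A and RNASEH2B fall outside this rule and were chosen after their values were seen. Alternatives were total counts, DESeq2 size factors, no filter, DESeq2 1.42.0, the compared libraries alone, a replicate term and leaving out each library.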

Additional observations from a re-analysis of the deposited data

Results flagged for a closer look

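The responses of the lines to doxycycline differed by a test of the difference itself (contrasts in the edgeR model, adjusted p under 0.05 over all tested genes). Against the TAL1 line, the response of the TAL1/LMO1 line differed for 45 of 49 members, and 43.8% of all tested genes were called there. The 5 largest differences were GINS1 (-1.0), USP1 (-0.98), POLE2 (-0.94), POLD2 (-0.93) and GMNN (-0.87), as log2 changes. Against the LMO1 line 47 members were called, where 45.4% of all genes were, and the largest were USP1 (-1.04), GINS1 (-1.04), POLE2 (-0.97), POLD2 (-0.93) and GMNN (-0.87). Against the sum of both single responses 36 members were called, where 34.7% of all genes were, and the largest were GINS1 (-1.13), POLE2 (-1.02), POLD2 (-0.86), USP1 (-0.82) and POLA1 (-0.79), followed among the named genes by GMNN (-0.78). RPA1 differed the other way, by 0.48 from the TAL1 line, 0.74 from the LMO1 line and 0.61 from the sum. The contrasts share the TAL1/LMO1 libraries. With doxycycline, TAL1 averaged 900 CPM in the TAL1/LMO1 line and 39.2 CPM in the TAL1 line, and LMO1 averaged 1539 CPM and 226 CPM in the LMO1 line, so a combination of genes and a higher level of each cannot be told apart.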

How the results depend on the processing

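Of the 48 members called with doxycycline in the TAL1/LMO1 line, 45 kept their call and direction under all 10 alternatives; CDT1, GINS4 and RPA3 lost it under total counts, and RPA3 also without DMSO replicate 2 of that line. POLE2 in the TAL1 line, which was not called (0.04), ranged from -0.05 (without doxycycline replicate 2) to 0.14 with 1 library left out; no called result changed direction. In the TAL1/LMO1 line, lower members numbered 44 with total counts and 46 to 47 with 1 library left out. Members higher numbered 2 in place of 1 with total counts, DESeq2 size factors, a replicate block and the compared libraries alone, E2F1 being added. Total counts moved the median of all genes in that line from -0.01 to 0.09 and that of the members from -0.56 to -0.46. For the member counts that follow, the shares of all genes called under each alternative are not given here. In the TAL1 line, 4 members were lower by DESeq2 and 5 with the compared libraries alone, against 1, and between 0 and 1 with a library left out (0 without doxycycline replicate 2). In the LMO1 line the range was 0 to 1 (0 without DMSO replicate 1 or doxycycline replicate 1). Called members between the DMSO libraries of the TAL1/LMO1 and LMO1 lines fell from 21 to between 12 and 18, with 12 without replicate 2 of the TAL1/LMO1 line; fewer libraries were fitted. The departure from the sum uses all lines and so had no separate fit on the compared libraries. Within each line, the log2 difference between replicates 1 and 2 with DMSO was set against the same difference with doxycycline. Over 9638 genes these differences correlated at 0.04 (TAL1/LMO1), 0.10 (TAL1) and -0.05 (LMO1), so the numbers were not taken as pairs. The replicate block gave 47 lower members in the TAL1/LMO1 line.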

Other observations

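TFDP1, which encodes the best-known dimerisation partner of the E2F factors, had 4 to 20 counts per library (0.259 to 1.29 CPM) in the authors' counting. Whether the annotation and counting they used captured its reads was not tested, so these values do not show that its RNA was scarce. No response of TFDP1 was called in any line (edgeR adjusted p = 0.63 in the TAL1/LMO1 line). SAMHD1, which degrades deoxynucleotides, had 0.737 to 1.78 CPM. Both were named after their values were seen.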
